A study of Mus musculus with 9 samples.

Results

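Slco4a1 and Tgm2 are 2 genes whose transcript levels differed from wild type in both knockouts of a macrophage RNA-seq series. They were taken by symbol from a table of 29763 named genes, and both passed the filter on low values that left 11133. The measurement was polyadenylated RNA of bone marrow-derived macrophages, a primary cell grown from mouse marrow over 7 days with 30% L929 cell supernatant as the source of growth factor. There were 3 groups of 3 libraries: wild type, a knockout of the gene Ndufa4l3 together with the microRNA miR-147 that it carries (Ndufa4l3-miR-147-/-, also called Nmes1-deficient) and a knockout of Ndufa4 (Ndufa4-/-). Every group, wild type included, had received interferon-gamma at 40 ng/ml for 12 h, so the values describe genotypes in stimulated cells and not the response to interferon. The labels call the replicates technical and give no strain, age or number of mice, so errors and p-values measure the spread between these libraries only, and an effect of a knockout cannot be told apart from other differences between the cells of each genotype. The unit was TPM, a level per transcript length scaled to a common total, and the sequencing depth is unknown. The named genes alone summed to between 913474 and 921678 TPM per library, so their totals were not equal.

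Slco4a1 encodes a membrane carrier of the organic anion transporting polypeptide family, a group of proteins that take up bulky organic anions without using sodium. It is known as a carrier of thyroid hormones and is found in many tissues. Tgm2 encodes transglutaminase 2, a calcium-dependent enzyme that cross-links proteins by joining glutamine to lysine residues, and that also binds guanine nucleotides and acts at the cell surface with integrins and fibronectin. In macrophages it is known as a marker of alternative activation and as a helper in the uptake of dead cells, and retinoic acid is a known inducer.

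Both genes lie on mouse chromosome 2 (build GRCm38), as does the gene targeted in the first knockout. Slco4a1 (ENSMUSG00000038963.15) spans 180456245 to 180474867 on the plus strand, and Tgm2 (ENSMUSG00000037820.15) spans 158116402 to 158146436 on the minus strand. Their starts lie 57.8 Mb and 35.5 Mb beyond that of Ndufa4l3, which is listed under the symbol AA467197. The annotation holds 5 transcripts of Slco4a1, 2 of them protein coding with 12 exons each, and 4 of Tgm2, 1 of them protein coding with 13 exons. The upstream sequences used here included none for Tgm2, so that of Tgm2 was neither shown nor searched. The sequence upstream of the first RefSeq start of Slco4a1, the gene with the larger difference between genotypes, is shown. It covers the 250 bases before the start, at chr2:180455995-180456244 on the plus strand (RefSeq, GRCm38.p6), and the capitals mark matches to the GC box GGGCGG on either strand.
Slco4a1: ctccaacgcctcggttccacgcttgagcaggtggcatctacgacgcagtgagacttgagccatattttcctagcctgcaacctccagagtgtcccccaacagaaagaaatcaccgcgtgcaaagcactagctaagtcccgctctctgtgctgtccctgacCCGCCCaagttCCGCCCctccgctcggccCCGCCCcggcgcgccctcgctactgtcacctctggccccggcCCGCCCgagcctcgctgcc
A GC box occurred at least once in 32.7% of 32851 such stretches, and the share with 4 or more was not counted. This stretch held 4 GC boxes, and its GC content was 64.8% against a median of 52.4%. It held no match, on either strand, to the interferon-gamma-activated site TTCNNNGAA (7.02% of all stretches hold one), to the core of the interferon-stimulated response element (2.98%), to the kB site (7.25%), to the hypoxia response core ACGTG (16.6%) or to the TATA box TATAAA (12.4%). The second RefSeq start of the gene had none of these motifs in its 250 bases.

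For Tgm2 the coding sequence around the active-site cysteine is shown beside that of Tgm1 and F13a1, relatives with the same chemistry, because the family shares this site and near-identical copies can share reads. Each line has 33 bases of the coding strand from the GENCODE transcript, 5′ to 3′, with the cysteine codon in capitals.
Tgm2: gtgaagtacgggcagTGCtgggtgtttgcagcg
F13a1: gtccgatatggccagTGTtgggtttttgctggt
Tgm1: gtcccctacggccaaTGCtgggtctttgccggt
The cysteine is residue 277 of the 686 residues of transglutaminase 2, and 22 bases of F13a1 and 23 bases of Tgm1 equalled Tgm2 over this stretch. No 31-base word of the coding Tgm2 transcript, on either strand, occurred in another transglutaminase. Of its 3566 such words 20.3% occurred in transcripts of genes on the opposite strand, 16.1% in Gm20412 and 4.18% in Rprd1b. The ends of both overlap Tgm2 in the GENCODE annotation. Gm20412 was not among the 29763 named genes under this symbol, so no level of it can be given. Rprd1b was at 9.17 to 12.4 TPM in the 9 libraries. The strand setting of the counting is not given in the sources used here, so reads of Tgm2 and of these partners may not be told apart. For Slco4a1, 0 of 2980 words occurred in any other gene.

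Slco4a1 was the lower in abundance and had the larger difference. In wild type it was at 27.6, 20.7 and 17.9 TPM in replicates 1 to 3. In the Ndufa4l3-miR147 knockout it was at 9.18, 5.76 and 6.68 TPM. In the Ndufa4 knockout it was at 5.28, 4.29 and 3.49 TPM. All wild-type libraries were above all knockout libraries, and the lowest library of the first knockout, at 5.76 TPM, was just above the highest of the second, at 5.28 TPM. The share of all genes kept with such a separation was not counted. The means were 22.1 ± 4.99, 7.21 ± 1.77 and 4.35 ± 0.899 TPM (SD, n = 3), so that 32.6% and 19.7% of the wild-type level remained in the first and second knockout. On the log2(TPM + 1) scale, which understates differences at such low levels, the differences from wild type were -1.49 ± 0.20 and -2.10 ± 0.20 (estimate ± SE). The gene stood above 48.3% to 59.5% of the 11133 genes kept in wild type, 22.9% to 31.7% in the Ndufa4l3-miR147 knockout and 18.5% to 22.5% in the Ndufa4 knockout.

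Tgm2 was among the abundant transcripts and lay higher in both knockouts. It was at 696, 697 and 693 TPM in wild type. The Ndufa4l3-miR147 knockout had 873, 873 and 870 TPM. The Ndufa4 knockout had 951, 985 and 991 TPM. The libraries of the 3 genotypes formed separate ranges with no overlap, in the order wild type, Ndufa4l3-miR147 knockout, Ndufa4 knockout. The share of all genes kept with such ranges was not counted. For both genes the separation from wild type follows partly from their choice. The means were 695 ± 2.24, 872 ± 1.99 and 976 ± 22.0 TPM (SD, n = 3), or 1.25 and 1.40 times wild type. The differences from wild type were 0.33 ± 0.03 and 0.49 ± 0.03 on the log2(TPM + 1) scale. The second was 0.41 with quantile normalization and 0.56 with median-of-ratios scaling. Between 98.0% and 98.6% of the genes kept were below Tgm2 in each library. Both genes were chosen for their difference from wild type, so these values are a description and carry no test. Over all genes kept, limma at an adjusted p under 0.05 called 0.431% in the Ndufa4l3-miR147 knockout (0.243% higher and 0.189% lower) and 8.59% in the Ndufa4 knockout (2.83% higher and 5.76% lower), against wild type. The 2 comparisons also share the wild-type libraries. Fewer cells with the transcript and less transcript per cell cannot be told apart in such bulk RNA.

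**Figure D1:**
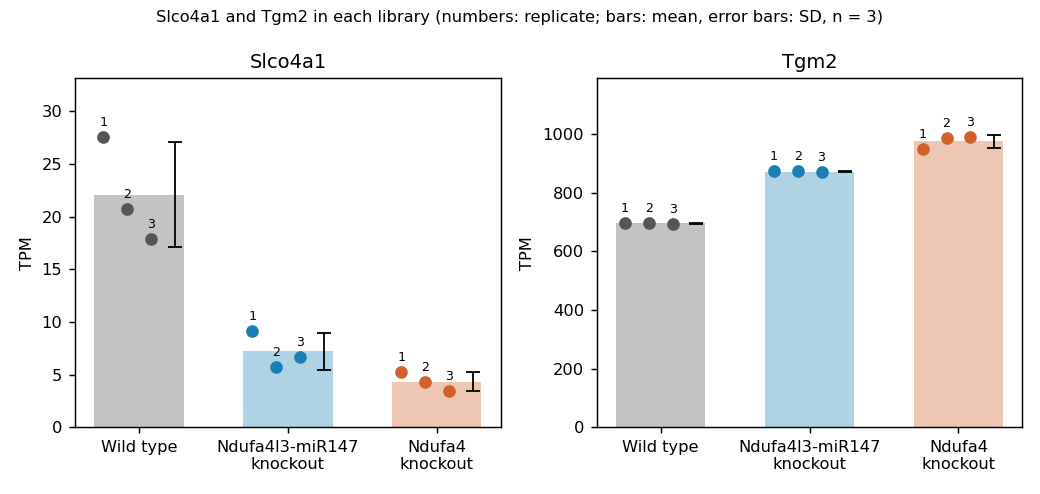
TPM (vertical axes, starting at 0) of Slco4a1 (left) and Tgm2 (right) in 3 libraries of each genotype; points are libraries numbered by replicate, bars the mean and error bars the SD. Slco4a1 lies at 17.9 to 27.6 TPM in wild type and at or below 9.18 TPM in both knockouts, while Tgm2 lies at 693 to 697 TPM in wild type and at 870 TPM or more in both knockouts.

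The direct comparison of the knockouts was not the one the genes were chosen on. It uses the same knockout libraries and the same pooled spread, so its p-values and intervals are not free of that choice. Slco4a1 was lower in the Ndufa4 knockout than in the Ndufa4l3-miR147 knockout by an estimate of -0.61 ± 0.20, which was not called (limma adjusted p = 0.14, 95% interval -1.06 to -0.16 before adjustment). Over 18 alternative settings its limma adjusted p was 0.0517 to 0.365. Tgm2 was higher in the Ndufa4 knockout by 0.16 ± 0.03 (limma adjusted p = 0.042, 95% interval 0.08 to 0.24). In this comparison 3.24% of all genes kept were called, 1.04% higher and 2.2% lower. The call of Tgm2 was lost in 13 of 18 alternatives, with a limma adjusted p of 0.00103 to 0.217 over all of them. Without any 1 wild-type library it was 0.093 to 0.104, without any 1 library of the Ndufa4l3-miR147 knockout 0.146 to 0.167, and without Ndufa4 knockout replicate 2 it was 0.0643. The ratio of Tgm2 to Slco4a1 in TPM was 25.2 to 38.7 in wild type. It was 95.2 to 152 in the Ndufa4l3-miR147 knockout and 180 to 284 in the Ndufa4 knockout. Its separation from wild type follows from the opposite differences of the 2 chosen genes and adds nothing to them.

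The spread between libraries of 1 genotype was very unlike for the 2 genes. Slco4a1 had a coefficient of variation (SD as a percentage of the mean) of 22.6% in wild type. Over the 3875 genes within 2-fold of its wild-type level the median was 4.78%, and 1.14% of them varied more. In the Ndufa4l3-miR147 knockout it was 24.5%, against a median of 7.88%, and in the Ndufa4 knockout 20.7%, against 17.9%. Replicate 1 held the highest value of Slco4a1 in each genotype. Tgm2 had a coefficient of variation of 0.322% in wild type and 0.228% in the Ndufa4l3-miR147 knockout, against medians of 2.01% and 2.44% over the genes of like level, of which 98.8% and 99.7% varied more. In the Ndufa4 knockout it was 2.25%, against a median of 8.47%. Tgm2 was chosen for its difference from wild type in these libraries, and a small difference stands out more easily where the spread is small. Its low spread may therefore follow partly from its choice.

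**Figure D2:**
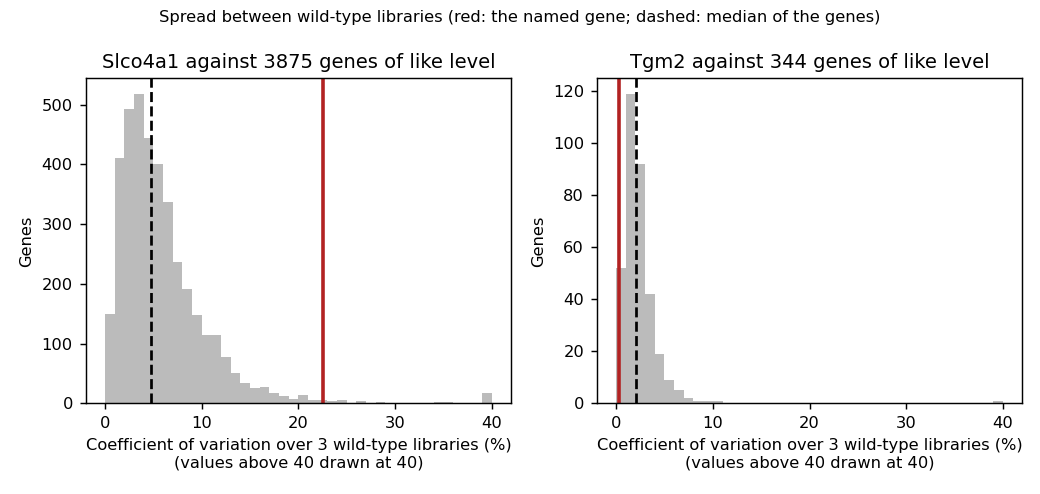
Histograms of the coefficient of variation over the 3 wild-type libraries (horizontal axes, %) for genes (vertical axes, number of genes) within 2-fold of the wild-type level of Slco4a1 (left, 3875 genes) and Tgm2 (right, 344 genes); the red line is the named gene and the dashed line the median. Slco4a1 at 22.6% lies far above its median of 4.78%, and Tgm2 at 0.322% lies below its median of 2.01%. The low spread of Tgm2 may follow partly from its choice.

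The libraries and labels were checked once for what bears on both genes. AA467197 was at 355 to 365 TPM in wild type, 2.21 to 4.50 TPM in its own knockout and 472 to 527 TPM in the Ndufa4 knockout. Ndufa4 was listed at 0 to 0.621 TPM throughout, in wild type too, so it checks nothing about the Ndufa4 labels. Ndufa4 knockout replicate 3 stood apart, at 40.4 on a first principal component with 34.5% of the variance, where the other 8 libraries lay between -11.4 and 4.56. Without it the differences of the Ndufa4 knockout from wild type were -1.98 for Slco4a1 and 0.48 for Tgm2. All 8 macrophage markers were expressed, with summed levels of 9236 to 9371, 8826 to 9019 and 9757 to 10220 TPM in the 3 genotypes. The 7 endothelial markers, which matter here because endothelium is rich in transglutaminase 2, summed to 45.5 to 48.7, 44.9 to 47.0 and 28.0 to 47.2 TPM. Of these Vwf led at 20.8 to 41.5 TPM, Kdr was at 3.54 to 6.83 TPM and Pecam1 at 0.457 to 1.30 TPM, while Cdh5, Tek, Emcn and Cldn5 stayed under 1 TPM. Vwf, Kdr and Pecam1 were not called in any comparison. Against wild type they differed by -0.32 ± 0.20, -0.46 ± 0.12 and -0.44 ± 0.16 in the Ndufa4 knockout (limma adjusted p of 0.053 to 0.34). Fibroblast, neutrophil and erythroid or mast cell markers summed to 6.48 to 131, 1.47 to 68.3 and 10.4 to 148 TPM with ranges that overlapped between genotypes, led by Col3a1, S100a9 and Hbb-bs, and no lymphocyte marker reached 1 TPM. Among dendritic cell markers Clec9a rose in the Ndufa4 knockout, from 26.7 ± 1.26 to 55.2 ± 17.4 TPM (limma adjusted p = 0.017, up to 0.0723 and lost without any 1 wild-type library), while Flt3, Zbtb46, Ccr7 and Siglech stayed under 1 TPM in every library. Xcr1, the other dendritic cell marker that was kept, had a wild-type mean of 1.45 ± 0.276 TPM and was at 2.83, 1.69 and 1.45 TPM in Ndufa4 knockout replicates 1 to 3, where Clec9a was at 73.4, 53.5 and 38.7 TPM (Xcr1 was not called, 0.26 ± 0.18, limma adjusted p = 0.39). Summed levels of that list were 27.8 to 29.8, 30.1 to 35.3 and 40.9 to 76.7 TPM, and their part in the levels of Tgm2 and Slco4a1 was not tested. Cd14 fell there (-0.84 ± 0.06) and Mertk fell (-0.51 ± 0.13, limma adjusted p = 0.049, up to 0.153 over the alternatives), while Lyz2 rose (0.24 ± 0.04, limma adjusted p up to 0.289 over the alternatives).

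The families of both genes were next described. Beside Slco4a1, 14 organic anion transporters were in the table and 3 passed the filter. Slco3a1, a carrier of prostaglandins, was the most abundant at 126 ± 2.63, 116 ± 1.26 and 118 ± 12.7 TPM in the 3 genotypes. Slco2b1, a carrier of steroid sulfates, was at 2.60 ± 0.251, 2.84 ± 0.648 and 1.61 ± 0.260 TPM, and Slco1a6 was near 1 TPM. By limma 0 of these 3 were called in any comparison. At an unadjusted limma p under 0.05 it was 0 in the Ndufa4l3-miR147 knockout and 1 in the Ndufa4 knockout, against wild type. Over all 11133 genes kept these unadjusted counts were 917 and 2905. Slco6d1 was at most at 1.15 TPM, and the other 10 stayed at or below 0.175 TPM, among them Slco2a1, the prostaglandin transporter. In wild type Slco4a1 was therefore second in level to Slco3a1 within the family, and in the knockouts it was 7.21 and 4.35 TPM beside 116 and 118 TPM. Tgm2 was the only transglutaminase gene that passed the filter. The other 8 genes of its family, among them F13a1 (the A subunit of clotting factor XIII) and Tgm1, reached at most 0.786 TPM in any library.

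Genes that handle thyroid hormone were followed because Slco4a1 carries it. Of 22 genes 11 were kept. In the Ndufa4 knockout 3 rose and 0 fell against wild type, or 27.3% of the list beside 8.59% of all genes kept, and the median was -0.16 against -0.08 over all genes kept. Slc7a8 was at 104, 107 and 105 TPM in wild type, at 139, 142 and 143 TPM in Ndufa4l3-miR147 knockout cells and at 147, 144 and 121 TPM in the Ndufa4 knockout. Its difference was 0.38 ± 0.07 in the Ndufa4 knockout (limma adjusted p = 0.016) and 0.42 ± 0.07 in the other (limma adjusted p = 0.052). Slc3a2 rose from 314 ± 5.68 to 385 ± 18.6 TPM (0.29 ± 0.05, limma adjusted p = 0.0096), and Slc7a5 from 14.4 ± 0.223 to 18.8 ± 2.14 TPM (0.36 ± 0.09, limma adjusted p = 0.037). These 3 encode the light chains LAT2 and LAT1 and their shared heavy chain, and are best known as exchangers of neutral amino acids. The receptor Thra was at 8.18 TPM in wild type and was not called, and the deiodinases Dio1, Dio2 and Dio3 stayed under 1 TPM. In the Ndufa4l3-miR147 knockout 0 of 11 were called by limma, and 4 at an unadjusted p under 0.05, beside 917 of 11133 genes kept. There Slc3a2 was at 360 ± 12.8 TPM and Slc7a5 at 16.8 ± 0.704 TPM. Without Ndufa4 knockout replicate 3 the counts were 4 higher and 2 lower in the Ndufa4 knockout and 3 higher in the Ndufa4l3-miR147 knockout, and without wild-type replicate 1 or 3 it was 0 in both. Without wild-type replicate 2 the Ndufa4 knockout had 1 higher and 0 lower.

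Partners of transglutaminase 2 at the cell surface and in the matrix were followed next. Of 21 genes 16 were kept. In the Ndufa4l3-miR147 knockout 1 fell and 0 rose, or 6.25% of the list beside 0.431% of all genes kept. Mfge8, which bridges dying cells to macrophage integrins, was at 52.7, 48.9 and 56.1 TPM in wild type and at 37.2, 36.8 and 38.4 TPM there (-0.48 ± 0.06, limma adjusted p = 0.019). This call was lost without wild-type replicate 1 or 3 and without any 1 library of the Ndufa4l3-miR147 knockout (limma adjusted p up to 0.128). It was at 48.8, 48.1 and 52.3 TPM in the Ndufa4 knockout, and the knockouts differed by 0.40 ± 0.06 (limma adjusted p = 0.015, up to 0.0734 over the alternatives and lost without any 1 library of the Ndufa4l3-miR147 knockout). In the Ndufa4 knockout 3 partners rose and 1 fell, or 25.0% beside 8.59% of all genes kept (2.83% higher and 5.76% lower), with a list median of 0.13 against -0.08 over all genes kept. The fall was that of Spp1, the matrix protein osteopontin and a transglutaminase substrate, from 3892 to 2072 TPM (-0.91 ± 0.07, limma adjusted p = 5.4e-04), which kept its call in all 18 alternatives. The fibronectin receptor chain Itga5 (0.28 ± 0.05), the phospholipid-binding protein Anxa1 (0.20 ± 0.04) and the heparan sulfate proteoglycan Sdc2 (0.61 ± 0.13, at 1.44 TPM in wild type) rose, with limma adjusted p of 0.013 to 0.028. Without wild-type replicate 1 or 2 0 partners rose, and without replicate 3 it was 1. In the Ndufa4l3-miR147 knockout Itga5, Anxa1 and Sdc2 differed from wild type by 0.30 ± 0.05, 0.23 ± 0.04 and 0.455 ± 0.128. They were not called there (limma adjusted p of 0.052 to 0.272). Between the knockouts Itgb5 was also lower in the Ndufa4 knockout (-0.24 ± 0.05, limma adjusted p = 0.041, up to 0.157 over the alternatives). Fn1, the main matrix partner of the enzyme, was at 2.95 ± 1.67, 7.60 ± 3.61 and 8.30 ± 1.68 TPM and was not called. Itgb3, an integrin chain known to act with transglutaminase 2 in the uptake of dead cells, stayed under 1 TPM.

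Retinoid genes were followed because retinoic acid induces Tgm2. Of 19 genes 9 were kept, and in the Ndufa4 knockout 2 fell and 0 rose, or 22.2% beside 8.59% of all genes kept, of which 5.76% were lower and 2.83% higher. With median-of-ratios scaling 1 fell. Dhrs3, which reduces retinal to retinol, was at 74.1, 80.5 and 76.4 TPM in wild type, at 76.0, 74.4 and 81.1 TPM in Ndufa4l3-miR147 knockout cells and at 44.3, 50.3 and 61.7 TPM in the Ndufa4 knockout (-0.57 ± 0.11 against wild type, limma adjusted p = 0.015). Fabp5, a lipid-binding protein that can carry retinoic acid, fell from 918 ± 50.4 to 743 ± 71.9 TPM (-0.31 ± 0.07, limma adjusted p = 0.034, and not called with median-of-ratios scaling). In the Ndufa4l3-miR147 knockout Fabp5 was at 749 ± 21.1 TPM (-0.29 ± 0.07, limma adjusted p = 0.197, not called). Without any 1 wild-type library 0 of the 9 were called. The receptors Rara and Rarg were at 7.33 and 9.99 TPM in wild type, and Cyp26b1, the retinoic acid hydroxylase, was listed at 0 in all libraries. By limma 0 members were called in the Ndufa4l3-miR147 knockout, and 2 at an unadjusted p under 0.05, beside 917 of 11133 genes kept.

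Genes of alternative activation, which Tgm2 is known to mark, were described in the same way. Of 26 genes 17 were kept. In the Ndufa4l3-miR147 knockout 0 were called by limma (3 at an unadjusted p under 0.05, beside 917 of 11133 genes kept). In the Ndufa4 knockout 1 rose and 1 fell, or 11.8%, beside 8.59% of all genes kept, and with median-of-ratios scaling 4 rose and 1 fell. Clec7a, the beta-glucan receptor dectin-1, was at 96.7, 110 and 107 TPM in wild type, at 103, 100 and 95.1 TPM in Ndufa4l3-miR147 knockout cells and at 195, 186 and 135 TPM in the Ndufa4 knockout. Its rise was 0.69 ± 0.13 (limma adjusted p = 0.013, up to 0.0632 over the alternatives and lost without wild-type replicate 1 or 3). Mrc1, the mannose receptor, fell from 38.4 ± 2.54 to 28.2 ± 4.46 TPM (-0.44 ± 0.11, limma adjusted p = 0.037, lost in 10 of 18 alternatives). Its level was 31.2 ± 0.461 TPM in the Ndufa4l3-miR147 knockout, where it was not called. The chemokine Ccl22 was called higher in the Ndufa4 than in the other knockout (0.67 ± 0.15, limma adjusted p = 0.044, lost in 12 of 17 alternatives) at means of 1.30 and 0.446 TPM. Without Ndufa4 knockout replicate 3 the list had 4 that rose and 1 that fell in the Ndufa4 knockout, and 2 that rose in the other. Arg1 was at 0.672, 2.29 and 2.02 TPM on average and was not called, and Retnla stayed under 1 TPM.

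**Figure D3:**
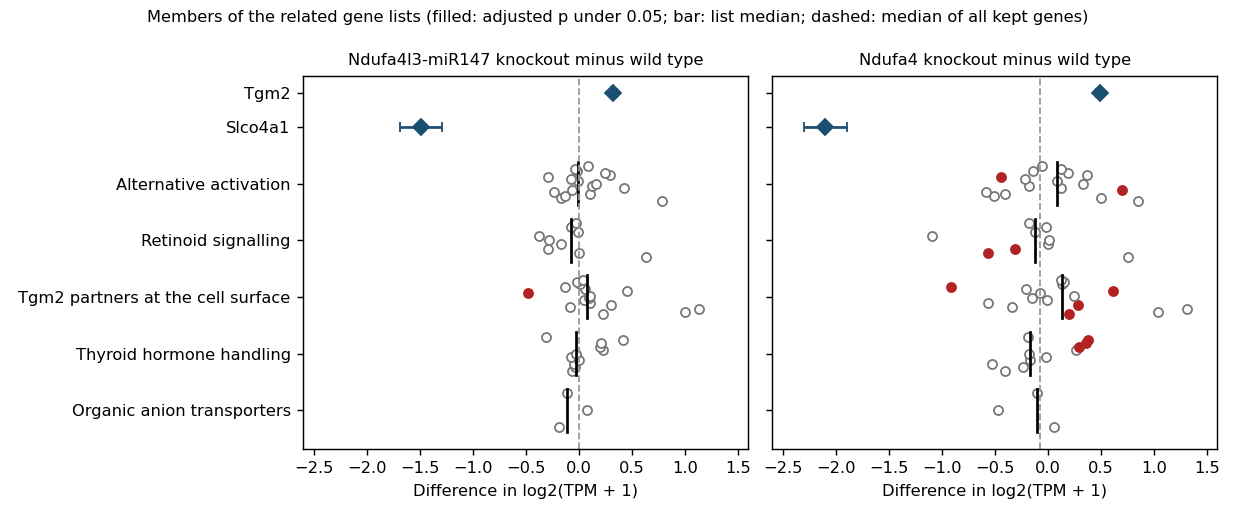
Differences in log2(TPM + 1) from wild type (horizontal axes) in the Ndufa4l3-miR147 knockout (left) and the Ndufa4 knockout (right) for the kept members of 5 gene lists and for Slco4a1 and Tgm2 (diamonds with SE); filled points passed limma at an adjusted p under 0.05, black bars are list medians and dashed lines the median of all genes kept. The left panel has 1 filled point, Mfge8 at -0.48, and Slco4a1 at -1.49 and -2.10 lies below every list member in both panels.

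The chromosomal surroundings of each gene were compared with the gene itself. Within 500 kb of the start of Slco4a1, 15 other genes were kept. By limma 0 of them were called in the Ndufa4l3-miR147 knockout (1 at an unadjusted p under 0.05, beside 917 of 11133 genes kept). In the Ndufa4 knockout 1 fell. This was Ogfr, the opioid growth factor receptor, whose start lies 133.2 kb away, from 222 ± 2.08 to 181 ± 9.38 TPM (-0.29 ± 0.05, limma adjusted p = 0.010, up to 0.0568 over the alternatives and lost without wild-type replicate 1 or 3). The nearest kept genes on either side, Cables2 and Mrgbp at -197.7 and 125.0 kb, differed from wild type by between -0.05 and 0.03 in both knockouts. The next ones, Rps21, Adrm1 and Col9a3, differed by between -0.16 and 0.07. Around Tgm2 5 genes were kept, and 0 were called by limma in either knockout. At an unadjusted limma p under 0.05 it was also 0, beside 917 and 2905 of 11133 genes kept. Rprd1b overlaps Tgm2 in GENCODE but not in the RefSeq positions used here. It differed by 0.05 ± 0.11 and 0.09 ± 0.11, and Tti1, Ctnnbl1, Snhg11 and Ralgapb by between -0.29 and 0.18. Over chromosome 2 as a whole, leaving out both genes and AA467197, 0.324% of 925 genes kept were called in the Ndufa4l3-miR147 knockout and 7.68% in the Ndufa4 knockout, beside 0.431% and 8.59% of all genes kept. Without Ndufa4 knockout replicate 3 the chromosome had 5 calls higher and 7 lower in place of 2 and 1 in the first of these comparisons, and 52 higher and 81 lower in place of 20 and 51 in the second. Without any 1 wild-type library the second had 7 to 8 higher and 9 to 13 lower, and with median-of-ratios scaling it had 43 higher and 38 lower.

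**Figure D4:**
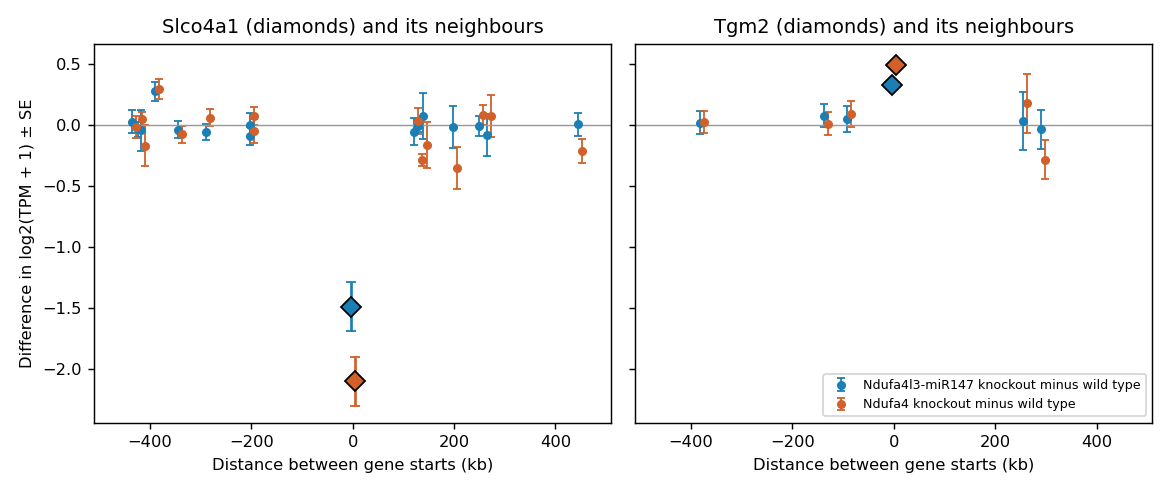
Differences in log2(TPM + 1) ± SE from wild type (vertical axis) of kept genes against the distance of their start from that of Slco4a1 (left) or Tgm2 (right) in kb (horizontal axes), for both knockouts; diamonds are Slco4a1 and Tgm2 themselves. All neighbours lie between -0.35 and 0.29, while Slco4a1 lies at -1.49 and -2.10.

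Genes with the most similar profile over the 9 libraries were found by Pearson's r of log2(TPM + 1) among 8482 other genes with a mean of at least 5 TPM. The 9 points are 3 groups of technical replicates, so r mostly reflects the order of the 3 genotypes, and it is given as a description. Slco4a1 was most like Ampd2 (an AMP deaminase, r = 0.981), Cdc20 (a mitotic regulator, r = 0.979), the fatty acid desaturases Fads2 (r = 0.979) and Fads1 (r = 0.976), and Hsd17b4 (a peroxisomal enzyme of fatty acid oxidation, r = 0.972). Fads2 was at 38.4, 36.2 and 36.1 TPM in wild type, at 25.1, 22.0 and 20.5 TPM in Ndufa4l3-miR147 knockout cells and at 16.8, 15.5 and 14.6 TPM in the Ndufa4 knockout. It was the only one of these 5 with a difference from wild type beyond -0.5 on the log2 scale, at -0.69 and -1.19. Most opposite to Slco4a1 were Pdgfb (a platelet-derived growth factor chain, r = -0.995), Gys1 (glycogen synthase, r = -0.976) and Hmga1 (a chromatin protein, r = -0.971).

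Tgm2 was most like Adam8 (a membrane metalloprotease, r = 0.989), Odc1 (the first enzyme of polyamine synthesis, r = 0.980), Pdgfb (r = 0.978), Pgk1 (a glycolytic enzyme, r = 0.976) and Cyth4 (r = 0.969). Adam8 was at 229, 234 and 232 TPM in wild type, at 315, 329 and 319 TPM in Ndufa4l3-miR147 knockout cells and at 410, 392 and 401 TPM in the Ndufa4 knockout. Its differences of 0.47 and 0.79 were larger than the 0.33 and 0.49 of Tgm2. Cyth4, at 0.08 and 0.14, followed the same order with a smaller size. Most opposite to Tgm2 were Clk3 (r = -0.985), C77080 (r = -0.984) and Fads2 (r = -0.983). Between Slco4a1 and Tgm2 themselves r was -0.971, and -0.965 without Ndufa4 knockout replicate 3. Pdgfb and Fads2 thus stood in the lists of both genes, on opposite sides.

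**Figure D5:**
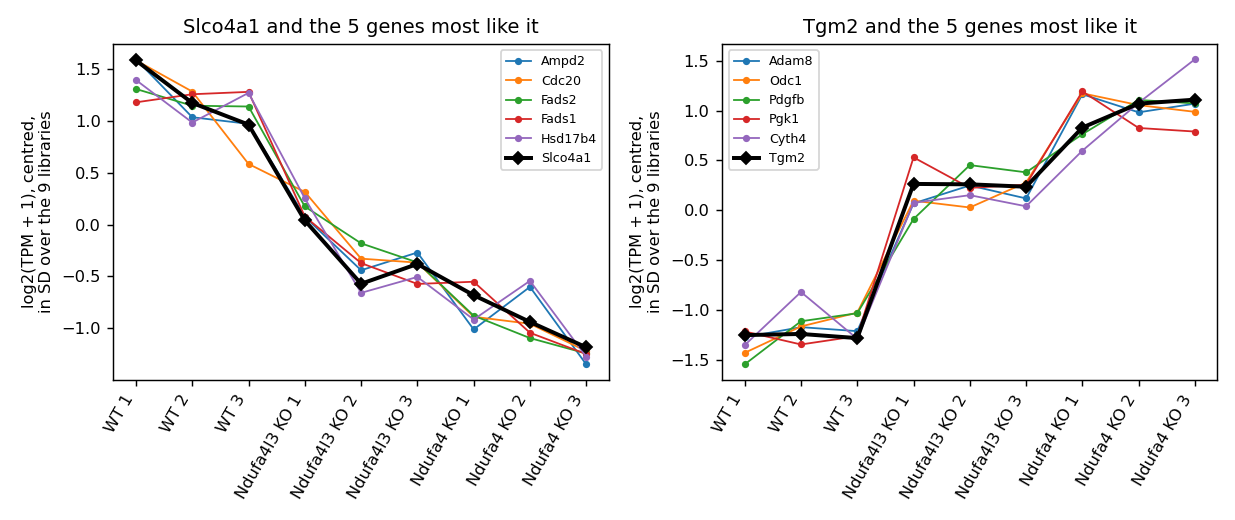
Profiles over the 9 libraries (horizontal axes, KO for knockout) of log2(TPM + 1), centred and divided by the SD over libraries (vertical axes), for Slco4a1 (left) and Tgm2 (right, both in black) and the 5 genes with the highest Pearson's r to each; lines only join the points of a gene. The mean level of each gene steps from wild type to the Ndufa4l3-miR147 knockout and on to the Ndufa4 knockout, downward for Slco4a1 and upward for Tgm2.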

How the data were processed

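TPM of 9 libraries were deposited by the authors in 1 table. The submitters' processing notes name kallisto, DESeq2 and edgeR without versions, and the builds mm10 and GRCm39. Which annotation was used is not given in the sources used here. TPM keep no depth, so no counting interval is given, and a gain in abundant genes lowers all others. One unnamed entry, at most 0.00303% of any library, stayed out of the fits.

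Values were taken as log2(TPM + 1). A gene was kept if 3 or more libraries had 1 TPM or more. Limma 3.58.1 (R 4.3.3, intensity trend, two-sided) was fitted to all 9 libraries with 1 mean per genotype, and a call means a p under 0.05 after Benjamini-Hochberg adjustment over the genes kept. The procedure was tested on simulated data. Alternatives covered the pseudocount, the filter, scaling, the variance model, library weights, the libraries fitted and a replicate block. Counts of list members under these settings were added after seeing the data.

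The genes and lists were chosen with earlier results of these data known. Genes named are Slco4a1, Tgm2, the targets, called list members (up to 4 per direction, otherwise the 2 most abundant), the 5 most and 3 least similar profiles, and the 3 nearest kept genes on either side. Other genes were named after their values were seen: Thra, the deiodinases, Fn1, Itgb3, Rara, Rarg, Cyp26b1, Arg1, Retnla, Slco1a6, Slco2a1, Slco6d1 and single markers. Positions, used for 10932 of 11133 genes, came from RefSeq (GRCm38.p6), and transcripts from GENCODE M21.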

Additional observations from a re-analysis of the deposited data

How the results depend on the processing

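The differences of Slco4a1 and Tgm2 from wild type kept their sign in all 18 alternatives, at -1.66 to -1.33 and -2.31 to -1.93 for Slco4a1 in the Ndufa4l3-miR147 and the Ndufa4 knockout and at 0.31 to 0.33 and 0.41 to 0.56 for Tgm2. Those that moved by more than the spread between libraries were the values of Tgm2 with quantile normalization (0.31 and 0.41) and with median-of-ratios scaling (0.56 in the Ndufa4 knockout). Between the knockouts Slco4a1 stayed at -0.74 to -0.44, uncalled throughout. Tgm2 was not called without the filter (0.16), with median-of-ratios scaling (0.23), with quantile normalization (0.10), without the intensity trend (0.16) or in a fit to the 6 libraries compared (0.16), and was 0.15 to 0.18 when any 1 library was left out.

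Over all genes kept, same-numbered libraries did not deviate together (r of -0.138 to 0.179 over 9 pairs). With 3 libraries per genotype this cannot settle whether the numbers pair the samples. With the replicate number as a block Tgm2 stayed at 0.16 between the knockouts but was not called (limma adjusted p = 0.0976), Slco4a1 was at -0.61 ± 0.11 (limma adjusted p = 0.0517), and the counts of called genes were 24 and 661 against wild type in the Ndufa4l3-miR147 and the Ndufa4 knockout, and 162 for knockout against knockout.

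In these 3 comparisons 48, 956 and 361 genes were called, 13 to 198, 266 to 1586 and 82 to 740 without any 1 library, with the highest count each time without Ndufa4 knockout replicate 3. Library quality weights, which were lowest for that library, gave 538, 3045 and 1726, and fits to the 6 libraries compared gave 306, 238 and 64. Without the intensity trend the first was 30. In the Ndufa4 knockout 32.9% of calls against wild type were higher, and 52.7% with median-of-ratios scaling, and between the knockouts 32.1% and 50.3%. Of 48 calls of other named genes, each in 1 comparison, 15 were kept in every alternative and 33 were lost in at least 1, and 0 changed sign. The cause of these changes was not tested. Depth is unknown, so no limit can be set on levels listed at 0.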
